A study of Arabidopsis thaliana with 18 samples.

Results

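The genotype by cold interaction at 1 h asks, for each gene, intron and splicing bin, whether plants of the gemin2 mutant answered 1 h at 10 °C differently from wild type plants. It is the change from 22 °C to 1 h at 10 °C in gemin2 minus the same change in wild type, on a log2 scale, so a positive value is a higher response in the mutant. It rests on 12 of the 18 libraries of the series, 3 in each of 4 groups. Introns and bins, the stretches of a gene that annotated splice forms use differently, were taken relative to the count of their gene.

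GEMIN2 encodes a subunit of the complex that loads the ring of Sm proteins onto spliceosomal small nuclear RNAs, and the ribonucleoproteins (snRNPs) made in this way recognise and remove introns. In plants, splicing changes with temperature, and transcripts of the circadian clock and of RNA-binding proteins are among those known to be spliced in several ways. A sudden drop in temperature is known to raise calcium in the cytosol within minutes, to induce calcium and touch genes, and to switch on the CBF transcription factors, which in turn activate the cold-regulated (COR) genes.

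All plants were whole Arabidopsis thaliana seedlings of age 9 days, grown in continuous white light at 22 °C. The groups were wild type of the Col ecotype (WT) left at 22 °C, WT moved to 10 °C for 1 h on the last day, gemin2 left at 22 °C and gemin2 moved to 10 °C for 1 h. The labels name neither the gemin2 allele nor the hour of harvest. Nothing in them says that replicates came from separate cultures, so a p-value here reflects the spread among the sequenced libraries, which may be technical. The 6 libraries taken after 24 h at 10 °C entered the fit, so the SEs and p-values below draw on their spread, while no level or change is taken from them.

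The 18 libraries of the fit held 15675913 to 53766089 gene counts. In gemin2 at 22 °C, rRNA genes took 22.5% of library C and at most 4.06% of any other library. Within gemin2 after 1 h, library A lay apart from B and C by a chi-square per gene of 71.2 and 56.3, against 7.96 between B and C. This measure grows with depth, and library A was the deepest. The number of genes past the test is also given without both of these libraries. On the third principal component, with 7.61% of the variance, library B of WT at 22 °C lay at -49.9 against 26.6 and 8.90 for A and C, and counts without it are given too. Markers of a whole seedling were present, with 67.4 to 91.9 CPM (counts scaled to library size) over 6 genes of dividing cells and 121742 to 191593 CPM over 21 nuclear photosynthesis genes. Of the floral markers, 3 of 5 were too low to test, and the sum of the other 2 was 0.372 to 2.15 CPM.

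The transcript of GEMIN2 itself (AT1G54380, chromosome 1, 20297965 to 20300908) was low in gemin2 in both conditions, and its response to cold did not differ past the threshold. In WT the 3 libraries stood at 13.3, 14.7 and 16.1 CPM at 22 °C and at 10.9, 10.5 and 11.9 CPM after 1 h. In gemin2 they stood at 4.01, 3.77 and 4.83 CPM and at 2.90, 2.88 and 3.16 CPM. Every gemin2 library was below every WT library. The fall with cold was 0.41 in WT and 0.49 in gemin2 on the log2 scale, and the interaction was -0.09 ± 0.16 (SE, 3 libraries per group, edgeR's quasi-likelihood test, adjusted p = 0.862).

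Few genes responded to 1 h of cold differently past the threshold. Of 21918 genes tested, 20 passed (0.0912%), 10 with a higher and 10 with a lower response in gemin2 (0.0456% each). The lower responses were found in genes that WT raised in the cold, among them the GH3 family gene DFL2, the flowering regulator CO, the cell wall genes FLA9 and EXPA1, the chlorophyll synthesis gene PORB and the kinase gene CIPK15. The higher responses included the clock coactivator genes LNK1 and LNK2, which fell in WT while their change in gemin2 did not pass, and 2 genes of unknown function, AT1G70420 and AT1G18740, which rose in gemin2 while their change in WT did not pass. At an unadjusted p under 0.05 the count was 2818 genes (12.9%).

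Read by the responses of each genotype, the 20 genes fall into 4 patterns. In 7 the rise was smaller in gemin2, in 1 it was larger, in 4 a fall was smaller, and in 8 the fitted responses had opposite signs. Cold changed 18 of the 20 in WT (11 up, 7 down) and 13 in gemin2 (9 up, 4 down). Over all genes tested, 25.6% passed in WT (14.7% up, 10.8% down) and 9.43% in gemin2 (6.27% up, 3.16% down). Since the interaction is made of these responses, the counts describe the 20 genes and support nothing. Between the genotypes, 10 of the 20 differed at 22 °C (6 higher in gemin2, 4 lower), against 21.1% of all genes (10.7% and 10.4%). After 1 h, 19 differed (10 higher, 9 lower), against 34.4% of all genes (16.6% and 17.8%). The interaction is equally made of these genotype differences, so these counts too are only a description.

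**Figure D1:**
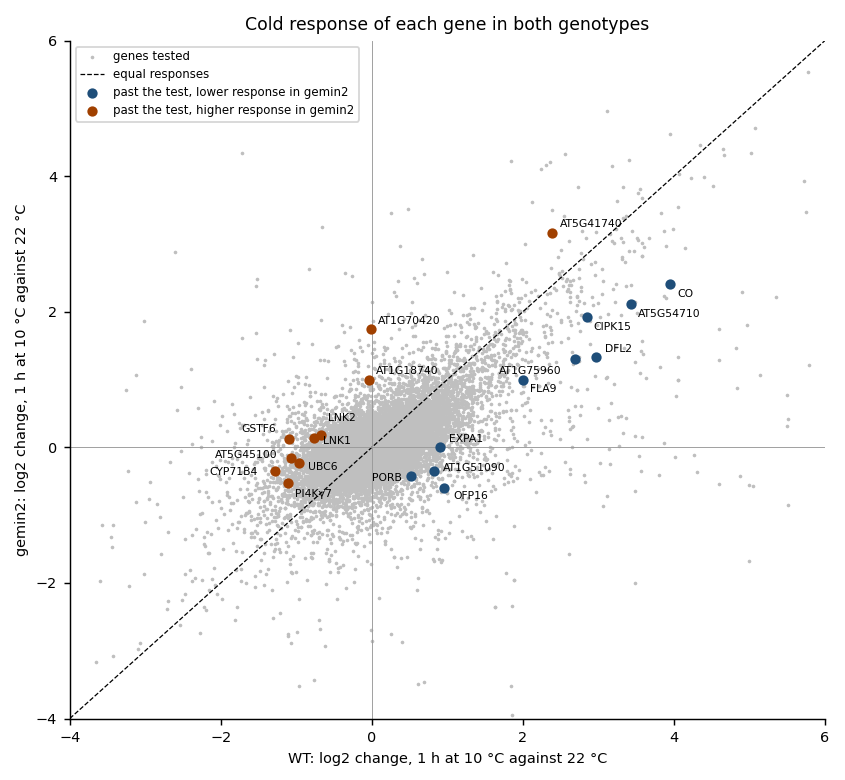
Log2 change of each of 21918 tested genes from 22 °C to 1 h at 10 °C in WT (x axis) and in gemin2 (y axis). Coloured points are the 20 genes past the interaction test, the dashed line marks equal responses, and 19 genes lie outside the axis range of -4 to 6. The 10 genes with a lower response in gemin2 all lie to the right of 0 and below the line, and 9 of the 10 others lie at or left of 0.

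DFL2 (AT4G03400, chromosome 4, 1497536 to 1499865) had the smallest adjusted p. It belongs to the GH3 family, whose enzymes join amino acids to acyl acids such as plant hormones. The WT libraries stood at 18.8, 21.3 and 17.9 CPM at 22 °C and at 168, 144 and 140 CPM after 1 h. In gemin2 they stood at 38.6, 41.4 and 36.9 CPM at 22 °C and at 91.9, 112 and 89.7 CPM after 1 h. The mutant thus began above WT and ended below it, with no overlap in either condition. The rise was 2.97 ± 0.11 in WT and 1.33 ± 0.10 in gemin2, an interaction of -1.64 ± 0.14 (adjusted p = 1.2e-05).

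AT1G75960 (chromosome 1, 28518033 to 28519874), annotated as a member of the AMP-dependent synthetase and ligase family, also began higher in the mutant. Its WT libraries held 3.69, 3.32 and 3.88 CPM at 22 °C and 23.3, 24.97 and 22.4 CPM after 1 h. The gemin2 libraries held 9.74, 10.8 and 11.7 CPM at 22 °C and 28.5, 25.3 and 25.5 CPM after 1 h. The genotypes were far apart at 22 °C (1.56, adjusted p = 3.06e-07), and after 1 h the difference of 0.17 did not pass (adjusted p = 0.247). The interaction was -1.39 ± 0.17 (adjusted p = 0.00178).

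CO (CONSTANS, AT5G15840, chromosome 5, 5171182 to 5172758), the transcription factor that activates the florigen gene FT in long days, had the largest rise of the 20 in WT. Its level went from 2.36, 2.13 and 1.99 CPM to 36.7, 34.4 and 29.6 CPM in WT. In gemin2 it went from 1.06, 0.957 and 1.52 CPM to 5.29, 7.13 and 6.20 CPM. The mutant was below WT in every library of both conditions. The rise was 3.96 ± 0.17 in WT and 2.40 ± 0.18 in gemin2, with an interaction of -1.55 ± 0.25 (adjusted p = 0.0178). In RefSeq's annotation CO overlaps AT5G15845 on the other strand, whose own interaction was -0.73 ± 0.18 (adjusted p = 0.139). The library kit does not mark strand, so reads from a stretch that such a pair shares cannot be told apart. DFL2 and UBC6 also overlap genes on the other strand, AT4G03410 and AT2G46020, whose interactions of 0.39 and -0.23 did not pass (adjusted p = 0.438 and 0.567). In the coordinates of the deposited counts, CO, DFL2 and UBC6 overlap no other gene.

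A smaller rise was also found for AT5G54710, FLA9 and CIPK15. AT5G54710, an ankyrin repeat protein, stood at 37.7 ± 2.65 CPM (SD, n = 3) after 1 h in WT and 12.4 ± 0.837 CPM in gemin2, from about the same level at 22 °C (3.52 ± 1.03 and 2.87 ± 0.535 CPM). Its interaction was -1.31 ± 0.23 (adjusted p = 0.0362). FLA9, a fasciclin-like arabinogalactan protein of the cell surface, reached 591, 486 and 533 CPM in WT and 297, 313 and 277 CPM in gemin2, with 132 to 137 and 133 to 156 CPM at 22 °C. The fold of cold was therefore lower in gemin2 with little difference at the start, and the interaction was -1.001 ± 0.159 (adjusted p = 0.0165). CIPK15, a kinase that works with calcineurin B-like calcium sensors, rose from 79.3 ± 8.05 to 570.2 ± 59.9 CPM in WT and from 53.5 ± 5.53 to 203 ± 31.8 CPM in gemin2 (-0.92 ± 0.17, adjusted p = 0.0395).

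In 4 genes with a lower response the rise of WT was absent or turned in gemin2. OFP16 (AT2G32100, chromosome 2, 13647852 to 13648785), of the OVATE family of transcriptional repressors, was at 10.7, 10.6 and 13.3 CPM in WT at 22 °C and at 22.6, 23.5 and 21.3 CPM after 1 h. In gemin2 it was at 16.4, 16.9 and 19.7 CPM and then at 10.2, 12.3 and 12.5 CPM. It rose in WT (0.96 ± 0.14, adjusted p = 6.87e-05) and fell in gemin2 (by 0.60 ± 0.14, adjusted p = 0.00687), an interaction of -1.55 ± 0.20 (adjusted p = 0.00178).

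PORB, which carries out the light-dependent step of chlorophyll synthesis, rose in WT (0.53, adjusted p = 0.00362) and fell in gemin2 (-0.42, adjusted p = 0.0291), with 348 to 416 CPM after 1 h in WT and 243 to 303 CPM in gemin2. Its interaction was -0.95 ± 0.17 (adjusted p = 0.0365), and AT4G27450, which overlaps it on the other strand in RefSeq's annotation, had one of 1.03 ± 0.22 (adjusted p = 0.0825). In the coordinates of the deposited counts, PORB overlaps no other gene. EXPA1, an expansin that loosens cell walls, rose from 225 ± 20.7 to 420 ± 18.3 CPM in WT and stood at 209 ± 19.9 and 209 ± 18.9 CPM in gemin2 (-0.90 ± 0.15, adjusted p = 0.0263). AT1G51090, annotated as a heavy metal transport and detoxification protein, stood at 8.81 to 9.79 CPM and then 14.97 to 18.9 CPM in WT, and at 12.4 to 15.3 CPM and then 10.7 to 12.0 CPM in gemin2 (-1.17 ± 0.17, adjusted p = 0.00891).

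The sum of 10 root marker transcripts was 76.5 to 94.7 CPM at 22 °C and 102 to 118 CPM after 1 h in WT, and 72.6 to 73.6 and 68.6 to 81.0 CPM in gemin2. The interaction was negative for 9 of the 10 and passed for 0 of the 10, where 0.0912% of all genes passed. Its median was -0.33 over the list and -0.0017 over all genes tested. The list's median was -0.66 without library A of WT at 22 °C and -0.16 without library B of WT after 1 h. In RNA of whole plants, fewer cells of a type and less RNA per cell cannot be told apart, and the part of root RNA in the 10 lower responses was not tested. The sum of 4 seed markers was 3.54 to 9.20 and then 2.12 to 2.99 CPM in WT, and 4.04 to 5.93 and then 4.78 to 5.62 CPM in gemin2, and its part in the higher responses was likewise not tested.

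Among the 10 genes with a higher response, AT1G70420 and AT1G18740 rose in gemin2 from a level at 22 °C that overlapped with that of WT. AT1G70420 (chromosome 1, 26539574 to 26540762), whose protein has a domain of unknown function, held 3.54, 5.57 and 4.12 CPM in WT at 22 °C and 3.72, 4.62 and 4.56 CPM after 1 h. In gemin2 it held 4.74, 5.26 and 5.23 CPM and then 19.0, 16.4 and 15.5 CPM. Only the gemin2 libraries after 1 h stood apart from the rest. The interaction was 1.76 ± 0.24 (adjusted p = 0.00467), the largest of the 20 in size.

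AT1G18740 (chromosome 1, 6463922 to 6465476), annotated as a ROH1-like protein of unknown function, showed the same arrangement at a higher level. It held 14.9 to 16.7 CPM and 13.8 to 18.04 CPM in WT, against 13.96 to 15.5 CPM and 26.9, 31.3 and 29.0 CPM in gemin2. Its interaction was 1.04 ± 0.17 (adjusted p = 0.0247). AT5G41740, a disease resistance protein of the TIR-NBS-LRR class, rose in both genotypes and more in gemin2, from 8.94 ± 0.491 to 47.0 ± 1.82 CPM in WT and from 8.23 ± 0.194 to 73.9 ± 4.996 CPM in the mutant. Its interaction was 0.77 ± 0.14 (adjusted p = 0.0448). It shares 90.5% of 3351 aligned bases with AT5G41750, so reads may be split between them.

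LNK1 and LNK2 are coactivators that bind clock transcription factors of the REVEILLE family and promote the evening genes of the clock. LNK2 (AT3G54500, chromosome 3, 20175370 to 20179027) stood at 148, 180 and 165 CPM in WT at 22 °C and at 98.1, 111 and 100.1 CPM after 1 h. In gemin2 it stood at 143, 139 and 146 CPM and then at 160.5, 166 and 159 CPM. WT fell in the cold (-0.67 ± 0.11, adjusted p = 1.24e-04), gemin2 was at 0.18 ± 0.10 (adjusted p = 0.355), and the interaction was 0.86 ± 0.15 (adjusted p = 0.0281).

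LNK1 (AT5G64170, chromosome 5, 25672466 to 25676746) held 34.1, 52.0 and 38.2 CPM in WT at 22 °C and 23.1, 26.5 and 23.0 CPM after 1 h. In gemin2 it held 42.9, 43.7 and 44.6 CPM and then 43.4, 49.2 and 51.8 CPM. The genotypes overlapped at 22 °C and did not after 1 h. The interaction was 0.91 ± 0.17 (adjusted p = 0.0395). Both LNK genes overlap genes on the other strand in RefSeq's annotation, and the overlapping genes that could be tested, AT3G54490 and AT5G64160, had interactions of -0.20 ± 0.51 and -0.19 ± 0.15 that did not pass (adjusted p = 0.901 and 0.603). In the coordinates of the deposited counts, LNK2 overlaps AT3G54490 and LNK1 overlaps no other gene.

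The other 5 genes fell in WT and changed less in gemin2. GSTF6, a glutathione S-transferase that conjugates glutathione to reactive compounds, went from 22.9 ± 1.97 to 10.7 ± 0.453 CPM in WT and from 15.8 ± 0.948 to 17.2 ± 2.83 CPM in gemin2 (1.23 ± 0.19, adjusted p = 0.0165). It shares 92.6% of 892 aligned bases with AT1G02920, a neighbouring copy. Several other genes past the test also had a similar gene. The identities ran from 75.9% of 1063 aligned bases (AT1G18740 with AT1G74450) to 93.5% of 291 (AT5G54710 with AT5G54720). CYP71B4, a cytochrome P450, fell by 1.29 in WT and by 0.35 in gemin2 (interaction 0.94 ± 0.16, adjusted p = 0.0263). The phosphoinositide 4-kinase gene PI4Kγ7 (AT2G03890) fell by 1.11 and by 0.52 (0.59 ± 0.11, adjusted p = 0.0448). AT5G45100 and the ubiquitin-conjugating enzyme gene UBC6 fell in WT (by 1.07 and 0.96) and did not pass in gemin2 (-0.15 and -0.23, adjusted p = 0.549 and 0.163), with interactions of 0.92 ± 0.17 and 0.73 ± 0.14 (adjusted p = 0.0448 and 0.0469).

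**Figure D2:**
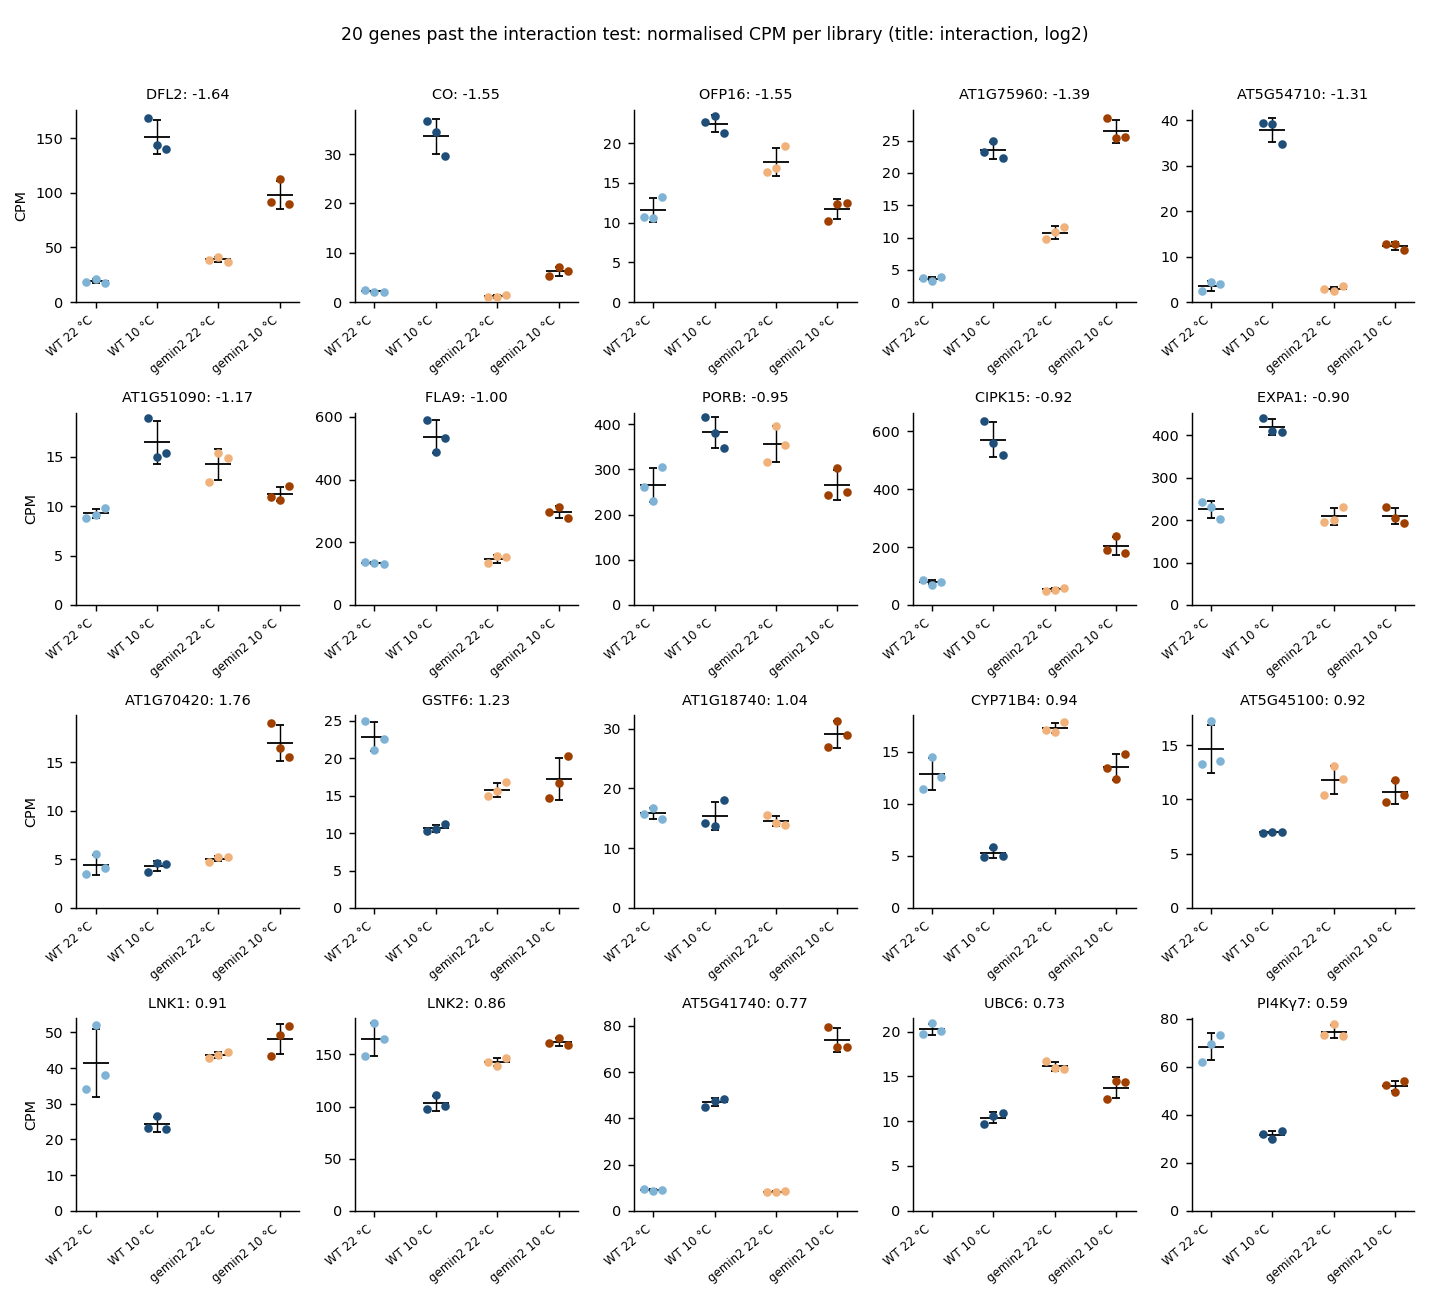
Level of the 20 genes past the interaction test in each of 12 libraries, in CPM scaled by TMM factors, with the group mean and SD (n = 3) as bars and the interaction (log2) above each panel. The first 10 panels hold the lower and the last 10 the higher responses in gemin2. In AT1G70420 the gemin2 libraries after 1 h, at 15.5 to 19.0 CPM, lie above the other 9.

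The promoters of the 20 genes were searched on both strands for 6 sets of letters known as plant binding sites, from 250 bases before to 50 bases after each start in RefSeq's annotation (TAIR10.1). CACGTG, the core of the G-box to which basic helix-loop-helix and bZIP factors can bind, was present in 5 of the 10 genes with a higher response, in 0 of the 10 with a lower response, and in 8.8% of 21332 promoters. The stretches below show it where 12 bases lay on either side within the window, with the motif in capitals and each read 5′ to 3′ on the strand of its gene, and the match in AT5G41740 lay too near the window's end.
GSTF6, chr1:662591-662620, minus strand: catctaacgatcCACGTGgacccaacaacg
AT1G18740, chr1:6463634-6463663, plus strand: tcccattttctcCACGTGgcacccattaat
LNK2, chr3:20179029-20179058, minus strand: ccactcgtttggCACGTGaccatttcatac
LNK1, chr5:25676808-25676837, minus strand: tgatttagttgcCACGTGttgatatcatgg

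The motif began 133 and 203 bases before the start of GSTF6 and AT1G18740, 2 bases before that of LNK1, and at base 25 of the LNK2 transcript. Of the other letters, CCGAC, the core bound by CBF factors, was in 1 of 10 promoters with a higher and 1 of 10 with a lower response, against 15.9% of all promoters. AAAATATCT, the evening element of clock-controlled genes, was in 0 and 1 of 10, the 1 being PORB, against 2.9%. CGCG was in 2 and 0 of 10 (13.8%), TTGAC in 6 and 6 of 10 (50.9%), and GCCGCC in 0 and 0 of 10 (2.7%). The groups were chosen by the measured responses, so these counts are a description with no test.

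Of 29 genes of the CBF and COR list, 0 passed the interaction test in either direction, where 0.0912% of all genes did, so the count says little about the list. Cold raised 18 of them in WT and 15 in gemin2, against 14.7% and 6.27% of all genes. The median interaction was -0.18. It was -0.050 without library C of WT at 22 °C, -0.099 without library A of WT after 1 h, -0.094 without library B of gemin2 after 1 h and -0.038 without both library C of gemin2 at 22 °C and library A of gemin2 after 1 h. CBF2 went from 0.188 to 0.820 CPM up to 18.5 to 27.8 CPM in WT, and from 0.530 to 0.987 CPM up to 20.2 to 59.6 CPM in gemin2, the highest being library A. Its interaction was -0.24 ± 0.83 (adjusted p = 0.931), and that of CBF3 was 0.96 ± 0.69 (adjusted p = 0.57). With SEs of this size, a difference between the genotypes in the response of CBF2 or CBF3 could have been missed. Of 18 calcium, touch and early stress genes, 0 passed, a count that says as little beside 0.0912% of all genes. In this list 16 rose in WT and 18 rose in gemin2. Their median interaction was 0.0033, and -0.055 to 0.101 with single libraries left out. The WRKY53 transcription factor gene came nearest at 0.96 ± 0.23 (adjusted p = 0.107).

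Of 25 clock genes, LNK1 and LNK2 passed with a higher and 0 with a lower response, against 0.0456% of all genes in each direction. The lists were chosen with earlier results of these data known, so such counts are a description. With each of the 12 libraries left out in turn, LNK1 and LNK2 each passed edgeR's test in 2 fits. Their largest adjusted p-values there were 0.173 and 0.151. The median of the clock list was -0.0082. It turned to 0.0076 with RLE factors and ran from -0.083 to 0.050 with single libraries left out. The morning gene LHY missed the threshold at 0.80 ± 0.16 (adjusted p = 0.079). It stood at 110, 129 and 132 CPM and then at 87.1, 102 and 92.8 CPM in WT, and at 39.3, 29.4 and 37.1 CPM and then at 42.5, 51.2 and 47.2 CPM in gemin2, which was lower in every library. RVE7, a relative of LHY, stood at 1.01 ± 0.25 (adjusted p = 0.141) and PRR5 at -0.13 ± 0.21 (adjusted p = 0.841), although PRR5 rose in both genotypes by 3.18 and 3.05. Of 16 flowering genes, CO passed with a lower response and 0 with a higher one, against the same shares of all genes. COL1, its relative, stood at -0.73 ± 0.18 (adjusted p = 0.139). In the deposited coordinates it overlaps AT5G15845, and the levels were 64.2 and 64.0 CPM over the 12 libraries, so whether these are separate signals is uncertain.

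Of 30 snRNP genes and 25 genes of SR and hnRNP splicing factors, 0 passed in either direction. Over all genes 0.0912% passed, so the count says little about these lists. The medians were 0.034 and -0.105. The interaction was negative for 19 of the 25 splicing factor genes, among them RS40 at -0.52 ± 0.18 (adjusted p = 0.251) and SCL30 at -0.46 ± 0.21 (adjusted p = 0.365), and for 17 with RLE factors or DESeq2. Their median was -0.039 and -0.047 (15 negative each) without library B of gemin2 after 1 h or of WT at 22 °C. It was -0.228 and -0.176 without library A of the same groups, and -0.180 without both library C of gemin2 at 22 °C and library A of gemin2 after 1 h. Of 10 other lists, 0 members passed in either direction, which says as little. Their medians were -0.167 for flavonoid and anthocyanin genes, 0.431 for heat shock, 0.145 for abscisic acid response, -0.120 for salicylic acid and defence, 0.056 for early auxin, 0.071 for photosynthesis, 0.049 for reference genes, -0.005 for dividing cells, 0.678 for floral and 0.934 for seed markers.

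The jasmonate list had the lowest median, -0.71 over 14 genes tested, with 11 negative, and that value rested on 1 library. Of the 14, 0 passed the threshold, where 0.0912% of all genes did. VSP1, a vegetative storage protein gene induced by jasmonate, held 1094 CPM in library A of gemin2 at 22 °C and 48.3 and 38.8 CPM in libraries B and C, against 61.7 to 197 CPM in WT. LOX2, which starts jasmonate synthesis in the chloroplast, held 2857, 910 and 766 CPM in the same libraries. Without library A of gemin2 at 22 °C the median was 0.041, and 9 of the 14 were positive.

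**Figure D3:**
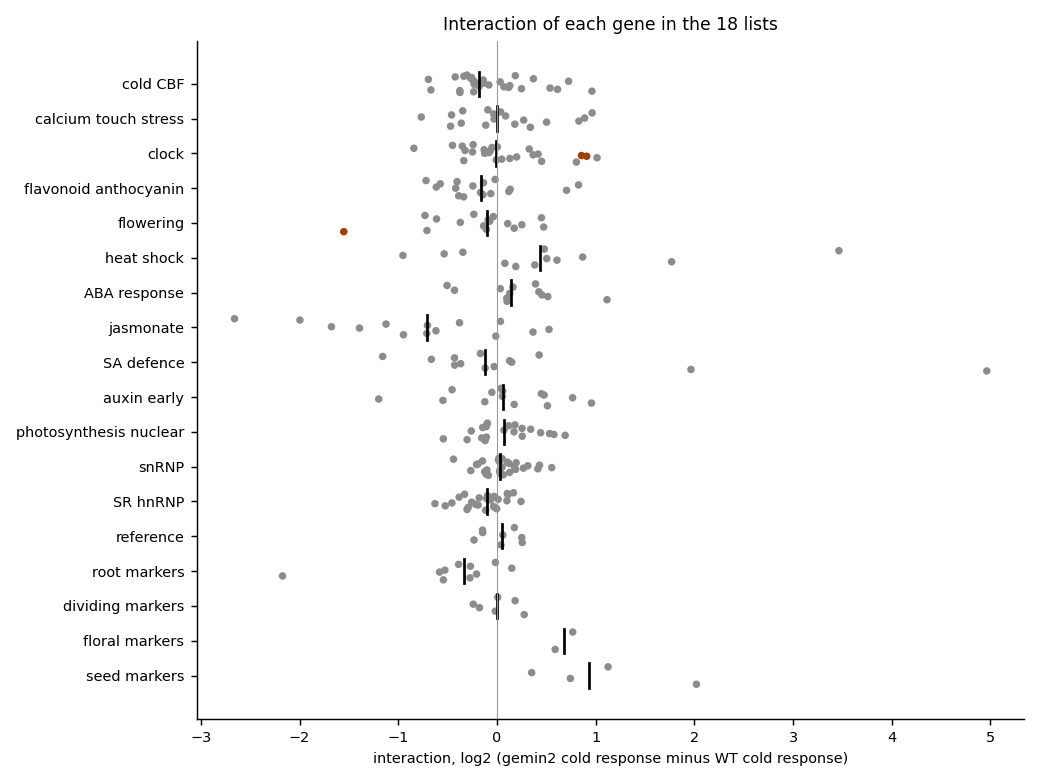
Interaction on the log2 scale (x axis) of 276 tested genes in 18 lists (rows), 1 point per gene, with the median of each list as a black line. The brown points are the genes past the threshold, LNK1 and LNK2 among clock genes and CO among flowering genes. The medians of the other lists lie between -0.71 (jasmonate) and 0.93 (seed markers).

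In the introns, 3 of 9366 tested passed (0.032%), all with a higher and 0 with a lower response in gemin2 (0%), and 983 (10.5%) had an unadjusted p under 0.05, of which 698 were positive and 285 negative. The 3 introns lie between coding exons of GRP7, AT4G23670 and AT2G42750. In each of them the ratio of intron reads to the gene's count fell with cold in WT. In gemin2 it rose in GRP7 and AT2G42750, and in AT4G23670 the change of -0.63 did not pass (adjusted p = 0.146). The splice sites are shown because the snRNPs pair with them, with 15 bases of exon and 30 of intron at each junction and the first 2 and last 2 bases of the intron in capitals, in TAIR10 coordinates of the intron.
GRP7 I002, chr2:9265894-9266202, minus strand, 5′ junction: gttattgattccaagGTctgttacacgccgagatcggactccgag
GRP7 I002, 3′ junction: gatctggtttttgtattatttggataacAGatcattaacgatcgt
AT4G23670 I001, chr4:12333115-12333469, minus strand, 5′ junction: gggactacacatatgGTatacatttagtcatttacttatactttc
AT4G23670 I001, 3′ junction: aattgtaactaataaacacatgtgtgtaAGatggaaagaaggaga
AT2G42750 I005, chr2:17794630-17794765, plus strand, whole intron of 136 bases: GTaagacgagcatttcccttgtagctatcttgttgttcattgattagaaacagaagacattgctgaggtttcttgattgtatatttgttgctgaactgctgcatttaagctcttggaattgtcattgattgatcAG

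The 3 introns share no 5′ splice site. The first 6 bases were GTCTGT in GRP7, GTATAC in AT4G23670 and GTAAGA in AT2G42750, letters found in 0.75%, 0.57% and 2.81% of tested introns. Their lengths were 309, 355 and 136 bases against a median of 127 over the 9329 introns placed on a gene strand, and the GC contents 38.5%, 26.8% and 36.8% against a median of 33.5%. No annotated gene or exon overlaps them.

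GRP7 (AT2G21660, named CCR2 in the deposited tables) encodes a glycine-rich RNA-binding protein of cold and clock responses that is known to act on the splicing of its own transcript and that of GRP8. The reads of its only intron in RefSeq's annotation made 5.36, 7.09 and 5.97 per 100 gene counts in WT at 22 °C and 3.93, 4.59 and 3.96 after 1 h. In gemin2 they made 6.24, 6.93 and 7.08 and then 8.77, 10.1 and 8.72. The genotypes overlapped at 22 °C and did not after 1 h, when gemin2 was higher by 1.14 ± 0.14 (adjusted p = 1.83e-06).

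WT fell by 0.56 ± 0.14 and gemin2 rose by 0.45 ± 0.13, an interaction of 1.01 ± 0.19 (adjusted p = 0.0495). The gene's own interaction was -0.10 ± 0.18 (adjusted p = 0.863). The intron passed without library A or C of WT at 22 °C or library A of gemin2 after 1 h, and missed the threshold without any other single library (adjusted p = 0.0696 to 0.165). The bin E002, 51 bases of GRP7 annotated as a retained intron, stood at 0.04 ± 0.08. The intron I005 of the relative GRP8 (GR-RBP8, AT4G39260) had an interaction of 0.94 ± 0.22 and missed the threshold (adjusted p = 0.120).

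AT4G23670 is annotated as a polyketide cyclase and lipid transport protein, shares 80.3% of 837 aligned bases with AT4G23680, and has 1 intron. That intron made 1.20, 1.36 and 1.33 per 100 gene counts in WT at 22 °C and 0.183, 0.215 and 0.269 after 1 h. In gemin2 it made 0.688, 0.674 and 0.522 and then 0.414, 0.247 and 0.555. WT thus went from 1.30 ± 0.086 to 0.222 ± 0.044, while gemin2 was already lower at 22 °C and its conditions overlapped. The interaction was 1.91 ± 0.36 (adjusted p = 0.0495). It passed without library C of WT in either condition or library A or B of gemin2 after 1 h, and missed the threshold without any other single library (adjusted p = 0.0693 to 0.186).

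AT2G42750, annotated as a DNAJ heat shock N-terminal domain protein, held the smallest adjusted p of the introns, on few reads. It averaged 18.75 reads per library, under the minimum of 20 set for naming, and is named because only 3 introns passed. The reads of intron I005, the fifth of 8, were 26, 15 and 47 in WT at 22 °C and 5, 8 and 5 after 1 h. In gemin2 they were 11, 11 and 5 and then 42, 21 and 29. Relative to the gene this was 0.491, 0.410 and 0.872 and then 0.129, 0.116 and 0.0775 per 100 gene counts in WT, against 0.152, 0.132 and 0.0759 and then 0.350, 0.314 and 0.396 in gemin2.

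The groups crossed without overlap, WT falling by 2.48 ± 0.42 and gemin2 rising by 1.53 ± 0.39, for an interaction of 4.01 ± 0.57 (adjusted p = 0.00187). Of the other 6 introns of AT2G42750 tested, I001 stood nearest at 2.42 ± 0.71 (adjusted p = 0.178) and I007, with the most reads, at -0.26 ± 0.35 (adjusted p = 0.844).

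**Figure D4:**
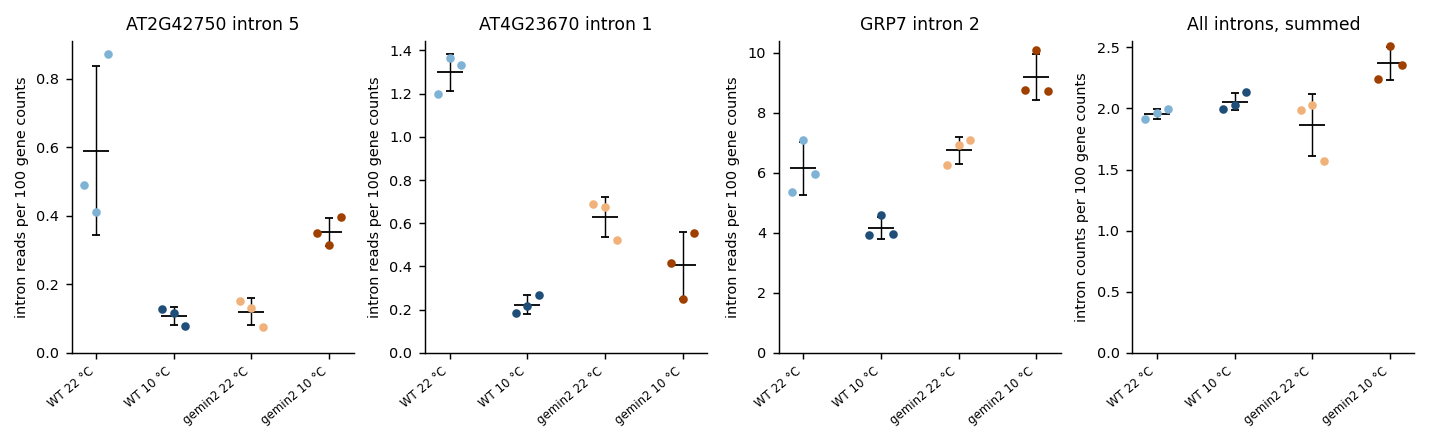
Reads of the 3 introns past the interaction test per 100 counts of their gene, and the counts of all introns per 100 gene counts (right), in each of 12 libraries with the group mean and SD (n = 3). The 3 introns fell in WT from 22 °C to 10 °C, and over all introns the gemin2 libraries after 1 h lie above the other 9.

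Across all introns the interaction leaned to positive values. Of the 9366 tested, 5586 were positive and 3780 negative, with a median of 0.154. The medians were 0.130 for 3633 introns up to 100 bases, 0.124 for 3173 of over 100 and up to 300 bases and 0.219 for 2560 of over 300 bases, with 0, 1 and 2 past the threshold. Introns of a gene share its count, so they are not independent of each other. Summed over all introns, there were 1.96 ± 0.041 intron counts per 100 gene counts in WT at 22 °C and 2.05 ± 0.070 after 1 h, and 1.86 ± 0.252 and 2.37 ± 0.133 in gemin2 (SD, n = 3).

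The difference of the 2 changes was 0.408 ± 0.171 (SE) intron counts per 100 gene counts. It was given no p. The low library was C of gemin2 at 22 °C, with 1.57 and the high rRNA share, and without it the value was 0.263. Over nuclear genes other than rRNA genes, a measure added after these values were seen, it was 0.285 ± 0.1003, and for the tested introns over their own genes it was 0.217 ± 0.082.

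Among the 3809 splicing bins tested, 0 passed in edgeR's test (0%), 365 (9.58%) had an unadjusted p under 0.05, and DESeq2 called 15, of which 14 were positive. The smallest adjusted p was 0.172. The median interaction was 0.062. By event the medians were 0.081 for 1058 retained introns, 0.072 for 337 skipped exons, 0.045 for 559 alternative 5′ sites, 0.043 for 1240 alternative 3′ sites and 0.070 for 615 bins of several events. In clock genes the bin nearest to the threshold was E008 of RVE8, an alternative 3′ site, at 0.98 ± 0.35 (adjusted p = 0.339), and in splicing factors E007 of SCL33 (AT1G55310), also an alternative 3′ site, at -1.26 ± 0.44 (adjusted p = 0.339).

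The genes nearest outside the threshold were AT4G25620 at -0.73 ± 0.14 (adjusted p = 0.053) and PRH, an enzyme of sulfate assimilation, at -0.70 ± 0.14 (adjusted p = 0.0569). The last inside it were UBC6 and AT5G45100, at adjusted p = 0.0469 and 0.0448.

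The number of genes past the threshold depended on single libraries, and 5 of the 20 passed without each of the 12 libraries in turn: DFL2, AT1G75960, OFP16, AT1G51090 and AT1G70420. The other 15 passed in 1 to 8 of the 12, with largest adjusted p-values of 0.0773 to 0.195, and none of the 20 changed sign. For WT at 22 °C, leaving out A, B or C left 17, 7 and 6 of the 20, and for WT after 1 h it left 5, 7 and 13. For gemin2 at 22 °C it left 12, 8 and 6, and for gemin2 after 1 h 20, 11 and 5. Without both library C of gemin2 at 22 °C and library A of gemin2 after 1 h, 7 genes passed (3 higher, 4 lower), 5 of them among the 20.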

How the data were processed

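The members of this comparison and the 18 gene lists (281 genes) were chosen with earlier results of these data known. Per the submitters' processing notes, reads were aligned with TopHat2 2.0.9 to TAIR10 and handled in R 3.0.2 with edgeR 3.4.2. The deposited tables hold raw counts per gene (33602), intron (120717) and splicing bin (7973) for 18 libraries. The counting program is not given in the sources used here, so whether the gene counts include intron reads is not known. Per the labels' protocols the libraries were poly(A) selected with a kit that does not mark strand. Columns carry letters A to C that no source ties to replicate numbers, so each was assigned to its group only.

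Genes were filtered with filterByExpr, scaled with TMM factors and tested with edgeR 4.0.16 (limma 3.58.1, R 4.3.3), by its quasi-likelihood test over 6 groups. Introns and bins had the log count of their gene as offset, a mean of at least 10 counts, and a gene mean of at least 50 counts with at least 10 in every library. Adjusted p-values are Benjamini-Hochberg values over all features tested, with a threshold of 0.05. An SE is the size of the change over the square root of F. CPM were computed here from the deposited counts. The code was tested on simulated data.

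Named were GEMIN2, then in each direction the 12 genes past the threshold with the smallest adjusted p, the 8 with the largest changes (mean of at least 5 CPM), and called list members. Introns needed a mean of 20 counts, with 1 exception that is stated. List members and bins that missed the threshold, and genes just outside it, were picked after their values were seen. The planned promoter table was not used here, so promoters were read from the TAIR10.1 genome. Of 117745 introns placed on a strand, 99.65% had GT or GC and AG ends there, so positions belong to that build. Copies were found with blastn 2.17.0. Alternatives were DESeq2 1.42.0, RLE factors, other filters, no offset, fitting only the 12 libraries, leaving out single libraries and a replicate block. Leaving out 2 libraries together and the nuclear denominator were added after the data were seen.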

Additional observations from a re-analysis of the deposited data

Results flagged for a closer look

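All 23 features below stand here because their response to 1 h at 10 °C differed between gemin2 and WT by a test of the difference itself, the interaction in edgeR's quasi-likelihood fit. Values are the response in gemin2 minus that in WT on the log2 scale. With 3 libraries a group, no feature was tested for a single library far from the others.

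Lower responses in gemin2 were found for DFL2 (-1.64), OFP16 (-1.55), CO (-1.55), AT1G75960 (-1.39), AT5G54710 (-1.31), AT1G51090 (-1.17), FLA9 (-1.001), PORB (-0.95), CIPK15 (-0.92) and EXPA1 (-0.90). Higher responses were found for AT1G70420 (1.76), GSTF6 (1.23), AT1G18740 (1.04), CYP71B4 (0.94), AT5G45100 (0.92), LNK1 (0.91), LNK2 (0.86), AT5G41740 (0.77), UBC6 (0.73) and PI4Kγ7 (0.59). The introns with a higher response were I005 of AT2G42750 (4.01), I001 of AT4G23670 (1.91) and I002 of GRP7 (1.01).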

How the results depend on the processing

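Counts of genes past the threshold moved from 20 to 184 with DESeq2 (102 higher, 82 lower), 34 with no filter on low counts (10 higher, 24 lower), 10 where the change also had to reach 1 in size, and 7 without library C of gemin2 at 22 °C and library A of gemin2 after 1 h. They were 20 with RLE factors and 20 without rRNA and organelle genes, and 25 when only the 12 libraries were fitted, 13 of them among the 20. DESeq2 called all 20 and none of the alternatives changed a sign among them. Leaving out 1 library gave 5 to 60 genes, 1 to 14 introns and 0 to 7 bins. The 60 came without library A of gemin2 after 1 h, and the 7 bins without library C of WT after 1 h. Introns past the threshold moved from 3 to 38 with DESeq2, 7 with a mean of at least 3 counts, 1 with no host gene offset and 1 without both libraries, and bins from 0 to 15 with DESeq2. DESeq2 gave no adjusted p for I005 of AT2G42750, which passed in all 18 alternatives that gave one. The difference in intron counts per 100 gene counts was 0.217 for tested introns over their genes, and 0.263 to 0.490 with each library left out. The cause of these differences was not tested.

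Whether the library letters pair the libraries is uncertain. Over 18 pairs with the same letter in different groups the correlation of deviations ran from -0.115 to 0.196. Its median was 0.036, against -0.022 for pairs with different letters, and the same letter was the best match in 9. With the replicate block by letter, 221 genes (73 higher, 148 lower), 4 introns and 0 bins passed, against 20, 3 and 0 without it. Of the lists, WRKY53, LHY, LNK1, LNK2, CO, COL1, PLT1 and RS40 (adjusted p = 0.0467) were among them.

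Single features could have large SEs, as CBF2 (0.83) and CBF3 (0.69) did, and the part of low counts in them was not tested.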

Other observations

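PR1, a marker of salicylic acid responses, had the largest positive interaction in any list (4.96 ± 1.62, adjusted p = 0.232). Its WT libraries stood at 0.205, 3.69 and 1.99 CPM at 22 °C and at 0, 0.116 and 0 CPM after 1 h, and its gemin2 libraries at 19.4, 6.76 and 3.54 CPM and then 11.5, 6.65 and 5.05 CPM. PLT1, a root stem cell regulator, had a negative interaction of -2.17 ± 0.54 (adjusted p = 0.139), with 0.250 to 0.824 CPM and then 1.89 to 2.84 CPM in WT, against 0.530 to 0.747 CPM and then 0.374 to 0.669 CPM in gemin2.

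Of the 184 genes that DESeq2 called, 9 were in the lists: LHY, RVE7, LNK1, LNK2, CO, COL1, WRKY53, LHCB5 and PLT1.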
